A study of Mus musculus with 13 samples.

Results

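This report describes 44 interferon-stimulated antiviral genes and nucleic acid sensors in C2C12 myotubes given palmitoylethanolamide (PEA). The members were taken from a list of symbols and matched to the deposited gene identifiers, with a mean normalized count of 10 or more required. All 44 were present and passed, out of 16382 genes in the tables, and all 44 were among the 13142 genes tested. C2C12 is an established mouse myoblast line that fuses into multinucleated myotubes in low serum. Wild-type C2C12 cells were differentiated, and on day 8 they received 10 µM PEA, an endogenous lipid mediator (PEA group), or its DMSO vehicle (CON group), for 24 h before RNA was taken. There were 6 libraries in each group. They came from 2 wells per treatment in each of 3 experiments, and the study's methods call the wells technical replicates. The labels do not say which libraries shared an experiment, so the p-values below treat the 6 libraries as independent and measure spread that is partly technical.

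Interferons are secreted when a cell detects foreign or misplaced nucleic acid. Type I interferons bind the receptor pair IFNAR1 and IFNAR2, the kinases JAK1 and TYK2 then phosphorylate transcription factors such as STAT2, which joins IRF9 to bind the interferon-stimulated response element (ISRE) in promoters. The genes so induced include RNA sensors, enzymes that stop translation or degrade RNA, and factors that trap or modify viral components, and many are also made at a basal level in cells that are not infected.

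To show the element in these genes, RefSeq promoter windows (GRCm38.p6, 250 bases before to 50 after each start) were searched for the ISRE core GAAANNGAAA on both strands. Windows were given for 32 of the 44 members, and each of their 38 windows matched GRCm39 exactly once, which gave the coordinates below. The core was present in 13 of these 32 members (40.6%), beside 3.99% of 27025 genes with a window. Such a match is short, and it is a description and not a binding site. Of the 9 members called higher in PEA that had a window, 3 held the core (Rsad2, Trim30a and Eif2ak2). The core of the gamma-activated site, TTCNNNGAA, which reads the same on both strands, was present in 7 of 32 members (21.9%), Irf1 and Adar among them, beside 9.55% of genes. Bst2, Eif2ak2 and Oas1a held both cores, and in Bst2 a match of one overlapped a match of the other. The core lay before the start in 10 members, and the stretches below show 6 of them, chosen to cover several roles. They are written 5′ to 3′ along the gene, with the bases of every ISRE core match in capitals.
Isg15, chr4:156285312-156285373, minus strand: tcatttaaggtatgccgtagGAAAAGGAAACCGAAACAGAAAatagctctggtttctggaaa
Ifit1, chr19:34618165-34618233, plus strand: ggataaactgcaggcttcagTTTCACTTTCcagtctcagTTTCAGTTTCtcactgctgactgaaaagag
Ifit3, chr19:34560753-34560836, plus strand: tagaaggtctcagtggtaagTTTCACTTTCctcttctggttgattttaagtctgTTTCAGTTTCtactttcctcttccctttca
Rsad2, chr12:26506542-26506591, minus strand: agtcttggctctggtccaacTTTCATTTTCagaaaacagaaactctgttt
Oas3, chr5:120915770-120915819, minus strand: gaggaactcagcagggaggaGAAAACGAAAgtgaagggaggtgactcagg
Bst2, chr8:71990211-71990266, minus strand: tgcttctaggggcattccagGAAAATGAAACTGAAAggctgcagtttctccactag
Isg15 carried 3 overlapping cores and Ifit1 carried 2. The stretch of Ifit3 was the same, letter for letter, as that of its neighbour Ifit3b at chr19:34585149-34585232. Rsad2 and Oas3 carried 1 core each in the stretch shown.

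Relative to CON, 43 of the 44 members had a higher level in PEA, and 1, Ifi27, had a lower one. The median log2 fold change of the members was 0.75, beside 0.01 over all genes tested, and 51.3% of all genes tested had a fold change above 0. Among them, 11 were upregulated at a Benjamini-Hochberg adjusted p below 0.05 in edgeR's quasi-likelihood test: Rsad2, Cmpk2, Oas1b, Oasl1, Rigi, Irf1, Trim25, Trim30a, Eif2ak2, Adar and Herc6. Over all genes tested, 6.31% were called higher. Ifi27 was downregulated, in a background of 4.74% of genes called lower. A further 17 members had adjusted p-values between 0.05 and 0.1, 14 lay between 0.1 and 0.2, and 1 (Mx1) was above. At an unadjusted p below 0.05, 41 members were higher, beside 14.3% of all genes.

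**Figure D1:**
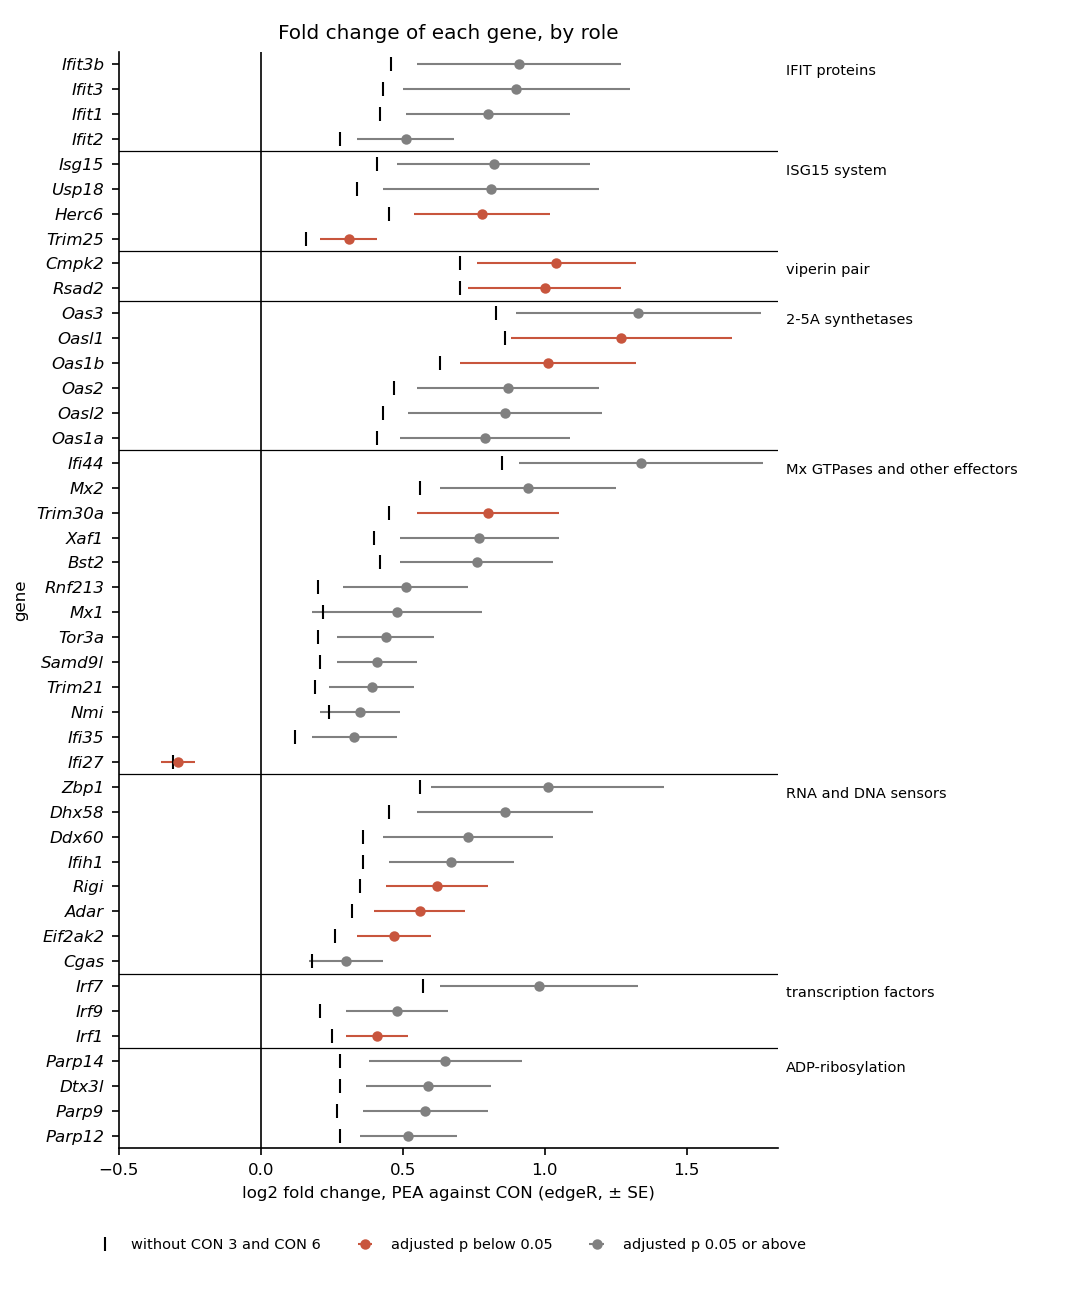
Log2 fold change of each of the 44 genes in PEA against CON (horizontal axis, points, with the standard error as bars), grouped by role, with genes called at adjusted p below 0.05 in red and the value without CON 3 and CON 6 as a black tick. All points but Ifi27 lie above 0, and the median falls from 0.75 to 0.36 without those 2 libraries.

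The size of these differences was set against a wide spread among the CON libraries. The median over members of the log2 level, relative to each gene's CON mean, was -1.18 in CON 3, -0.93 in CON 6, -0.02 in CON 1, 0.08 in CON 5, 0.22 in CON 4 and 0.85 in CON 2. In PEA it was 0.38 in PEA 1, 0.39 in PEA 3, 0.75 in PEA 6, 0.80 in PEA 5, 0.86 in PEA 4 and 0.94 in PEA 2. That is, CON 3 and CON 6 stood low, CON 2 stood among the PEA libraries, and PEA 1 and PEA 3 were the lowest of PEA. CON 3 and CON 6 were both among the 2 lowest CON libraries for 43 of 44 members, beside 13.6% of all genes tested, with Mx1 as the exception. CON 2 was the highest CON library for 40 members, beside 21.6% of all genes. PEA 1 and PEA 3 were the 2 lowest PEA libraries for 38 members, beside 11.7% of all genes.

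**Figure D2:**
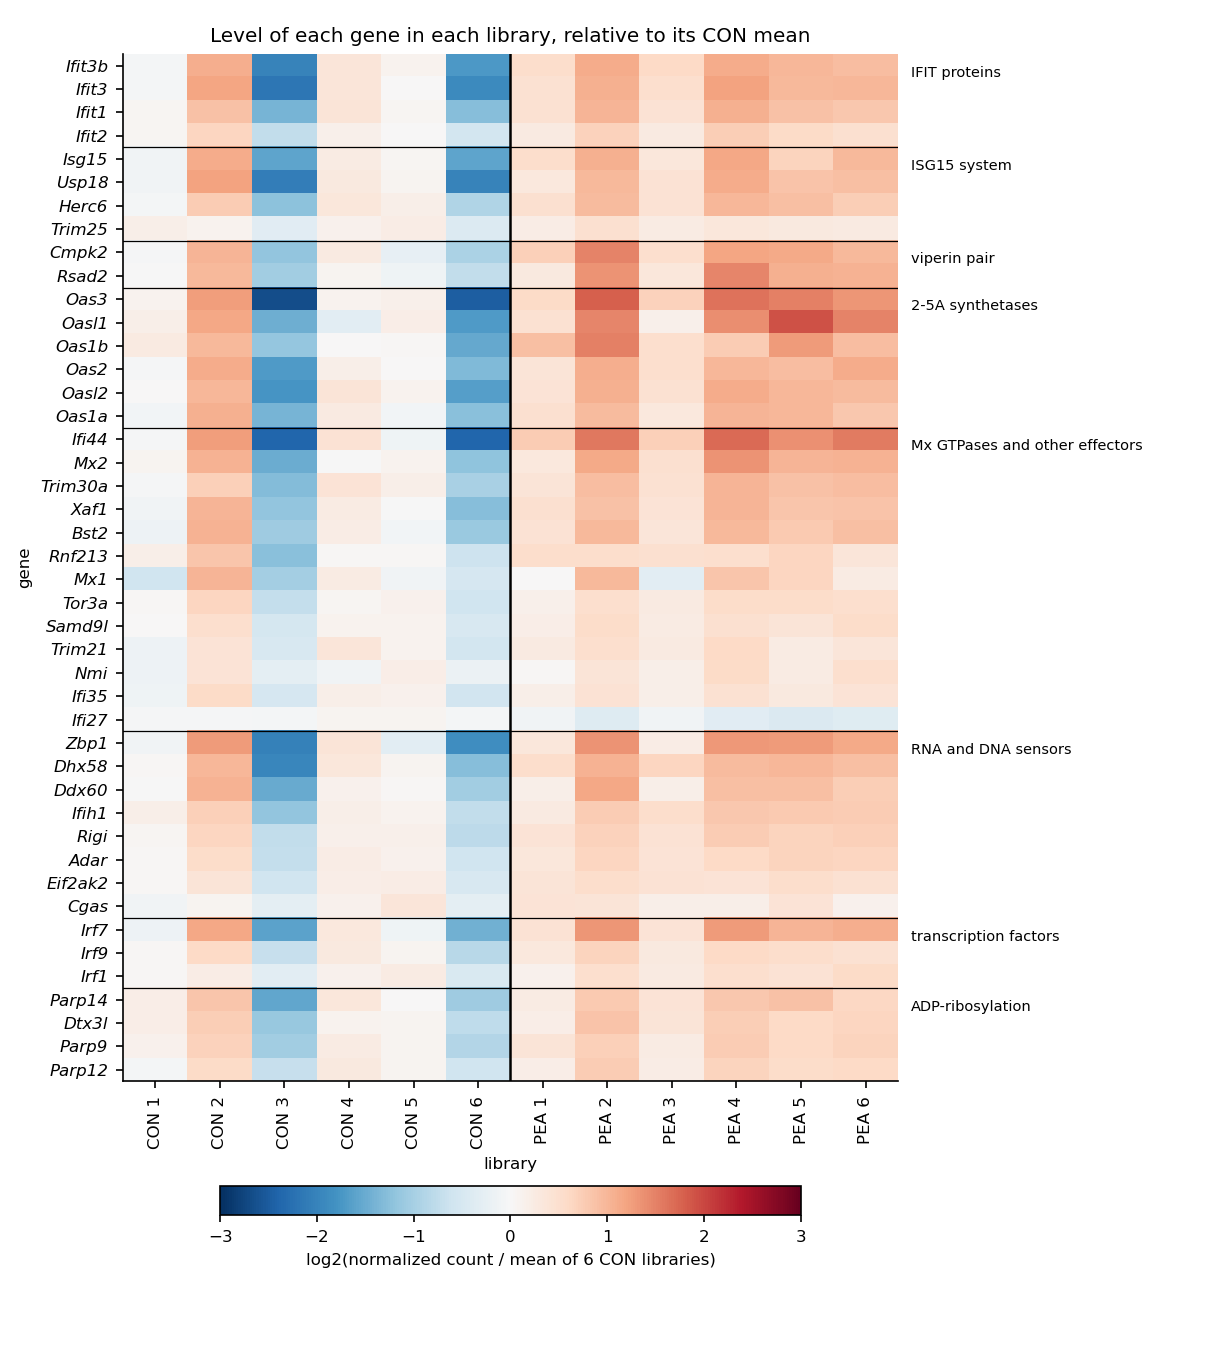
Normalized count of each gene (rows, by role) in each of the 12 libraries (columns), as log2 of the ratio to the gene's mean over 6 CON libraries, from blue (lower) to red (higher). CON 3 and CON 6 are blue for nearly every gene, CON 2 is as red as most PEA libraries, and the row of Ifi27 runs the other way.

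The highest CON library exceeded the lowest by a median of 4.17-fold over the members, and by 15-fold for Oas3. In PEA the same ratio had a median of 1.53, and its largest value was 3.37, for Oasl1. On the log2(normalized count + 1) scale, the members' SD over libraries had a median of 0.78 among CON libraries and 0.25 among PEA libraries, beside 0.15 and 0.12 for all genes tested. The SD was larger in CON for 43 of 44 members, beside 65.3% of all genes. Without CON 3 and CON 6 the median SD of the members in CON was 0.38, and the SD was larger than in PEA for 40 members, beside 56.5% of all genes.

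**Figure D3:**
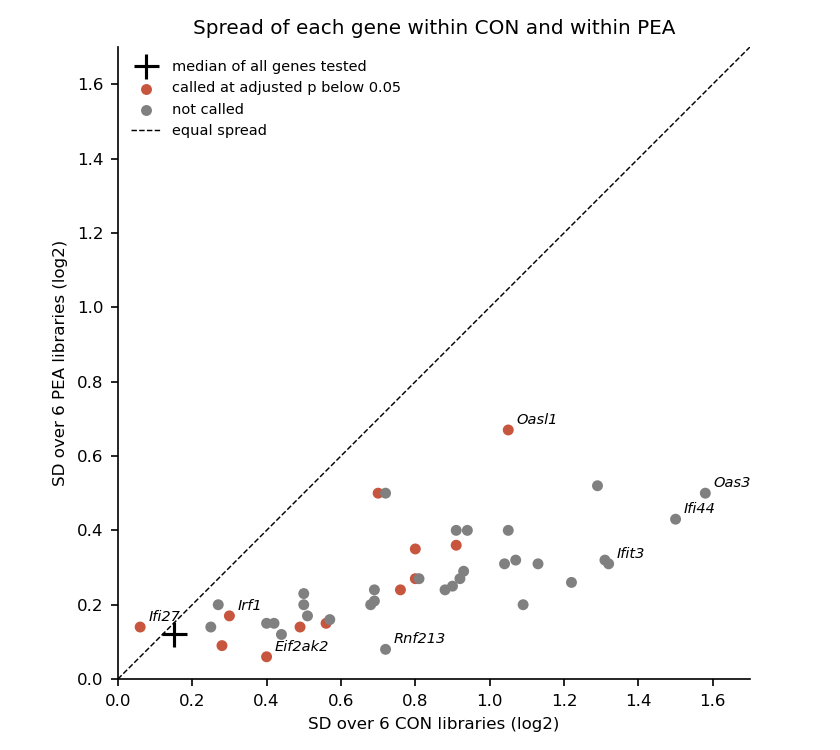
SD of log2(normalized count + 1) of each gene over the 6 CON libraries (horizontal axis) and over the 6 PEA libraries (vertical axis), with called genes in red and others in grey. All points but Ifi27 lie below the dashed line of equal spread, and the cross at 0.15 and 0.12 marks the median of all genes tested.

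The calls changed when single libraries were left out. Without CON 2, 42 members were called higher, beside 9.32% of all genes tested. Without CON 3, 6 were called (Adar, Cmpk2, Eif2ak2, Irf1, Rigi and Rsad2), and without CON 6 only Irf1 was, beside 4.84% and 4.05% of all genes. Without CON 1, Cmpk2, Eif2ak2, Irf1 and Trim25 (4) were called, without CON 5 Eif2ak2, Irf1 and Trim25 (3), and without CON 4 all of the 11 but Oas1b and Oasl1. The shares of all genes called higher in these 3 fits were 5.07%, 4.48% and 5.98%. Leaving out PEA 1 gave 11 calls, in which Ifih1 and Mx2 replaced Oas1b and Trim25, beside 5.91% of all genes. Leaving out PEA 3 gave 9, without Trim25 and Trim30a, beside 5.77%. Without PEA 4 only Eif2ak2 was called, beside 4.48% of all genes. Without PEA 2, PEA 5 or PEA 6 edgeR called 0 members higher, although 34, 35 and 39 members had an unadjusted p below 0.05 there and no other tool was run on those sets. The shares of all genes called higher in these were 4.27%, 3.79% and 3.72%. In every one of these 12 fits 43 members kept a fold change above 0 and Ifi27 was called lower.

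Leaving out CON 3 and CON 6 together, the median log2 fold change of the members was 0.36. Then 4 members, Adar, Eif2ak2, Rigi and Ifi44, were called higher, beside 3.53% of all genes, and 43 were above 0, beside 51.4% of all genes. No PEA library was at or below any CON library for 2 members, Trim25 and Eif2ak2, beside 2.53% of all genes, and no PEA library was at or above any CON library for Ifi27, beside 1.81%. Leaving out CON 2 alone, every PEA library was above every CON library for 31 members, beside 5.52% of all genes.

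The cells expressed the markers of myotubes. The summed normalized count of 14 myotube genes, among them Acta1 and Des, ran from 142280 in CON 3 to 214993 in CON 2, and from 148811 to 167370 in PEA. CON 6 had 167274. Among these genes Myh8, Tnnt3, Tnni2 and Actn2 were called lower in PEA, with log2 fold changes of -0.74, -0.33, -0.47 and -1.08, beside 4.74% of all genes. Of the 14, 13 had a log2 fold change below 0, with a median of -0.22. Without CON 3 and CON 6 the median was -0.39 and 9 were called lower, Myh8 no longer among them at -0.79 (edgeR adjusted p = 0.0649), beside 2.77% of all genes. Of the 6 myoblast and progenitor genes, Cd34 was called higher (log2 fold change 0.24) and Cdh15 lower (-0.25). Myh1, an adult myosin heavy chain, was lowest in CON 3 at 934.5 and highest in CON 2 at 4969, and those libraries were also low and high for the members. CON 6 was also low for both, with a Myh1 count of 1952 and a summed count over the members of 30207. Some other libraries did not keep that order. CON 5 had a Myh1 count of 4860 and a members' sum of 58971, CON 4 had 2195 and 67186, and PEA 4 had the lowest Myh1 of PEA, 2287, and the highest members' sum of all libraries, 103003. The part of differentiation state in the members' levels was not tested. In bulk RNA, fewer cells that make a transcript and less of it per cell cannot be told apart. Of 11 leukocyte markers, 7 were in the tables. Ptprc, the pan-leukocyte antigen, was at 0 in 10 of 12 libraries, and Itgam, Cx3cr1, Csf1r and Laptm5 had group means from 1.28 to 8.09. Coro1a averaged 14.86 in CON and 16.84 in PEA, with 9 to 24 estimated counts in a library (log2 fold change 0.24, edgeR adjusted p = 0.68). The summed leukocyte list, nearly all of it Cd14, ran from 514.1 to 704.1 in CON and from 629.3 to 815.3 in PEA. Cd14 had a log2 fold change of 0.25 (edgeR adjusted p = 0.0722), and of 0.33 without CON 3 and CON 6 (edgeR adjusted p = 0.0255), where it was called higher.

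Values below are normalized counts, given for a gene as its lowest, median and highest library in each group, and gene positions are those of GENCODE vM39 on GRCm39. The IFIT proteins bind foreign RNA ends and block translation. All 4 were higher in PEA, with log2 fold changes from 0.51 (Ifit2) to 0.91 (Ifit3b), and 0 were called by edgeR or DESeq2, while limma-voom called 3 and all 4 had an unadjusted p below 0.05 in edgeR. Ifit3, with the highest level per kilobase of exon of the role, had 1147, 5032 and 11572 normalized counts in the lowest, median and highest CON library, and 6998, 10152 and 11942 in PEA. The CON 2 library lay inside the PEA range, and the other CON libraries lay below it. The log2 fold change was 0.90 ± 0.40 (SE, n = 6 and 6; edgeR adjusted p = 0.151). Ifit3b, a near copy on the same stretch of chromosome 19, had 352.1, 1433 and 3004 in CON and 2049, 2766 and 3079 in PEA, a log2 fold change of 0.91 ± 0.36 (edgeR adjusted p = 0.109). Their estimated counts departed from whole numbers by up to 0.47 and 0.50, so some reads of each were shared with other features. Whether they were shared within the pair was not tested. Ifit1, whose protein recognises RNA with an unmodified cap, averaged 4112 ± 2269 in CON and 7129 ± 1304 in PEA (SD, n = 6; log2 fold change 0.80). Ifit2 averaged 621.3 ± 213.5 and 885.5 ± 121.8.

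ISG15 is a ubiquitin-like protein that is attached to other proteins and also secreted. Isg15 had, after Bst2, the highest level of all members per kilobase. Its lowest, median and highest libraries were 826.6, 2451 and 5415 in CON and 3168, 4422 and 5526 in PEA. Again CON 2 alone of the CON libraries reached the PEA range. The log2 fold change was 0.82 ± 0.34 (edgeR adjusted p = 0.124). Usp18, which removes ISG15 and restrains the interferon receptor, had 209.8, 871.9 and 2014 in CON and 1098, 1609 and 1909 in PEA, with the largest CON value above every PEA library, a log2 fold change of 0.81 ± 0.38 (edgeR adjusted p = 0.185). Without CON 2 it was 1.24 (edgeR adjusted p = 0.017). Herc6 (chr6:57557932-57642597), the mouse ligase for ISG15, rose from 145, 357.1 and 579.5 to 463.5, 606 and 681.3, a log2 fold change of 0.78 ± 0.24 (edgeR adjusted p = 0.0457). Only CON 2 reached its PEA range. Herc6 was not called by DESeq2 (adjusted p = 0.0737), nor by edgeR without CON 3 and CON 6 (log2 fold change 0.45, adjusted p = 0.0693). Trim25 (chr11:88890202-88911122), a ubiquitin ligase of the RIG-I pathway, rose from 751.4, 1087 and 1165 to 1167, 1220 and 1397. Its groups did not overlap, though the nearest libraries were 1165 and 1167, and its log2 fold change was small at 0.31 ± 0.10 (edgeR adjusted p = 0.0465). It was not called without CON 3 and CON 6 (log2 fold change 0.16, edgeR adjusted p = 0.121).

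Rsad2 (chr12:26492745-26506451) encodes viperin, a radical enzyme that makes a chain-terminating nucleotide, and Cmpk2 (chr12:26519203-26529836), its neighbour on chromosome 12, encodes a mitochondrial nucleotide kinase. Both rose in PEA. Rsad2 had 176.9, 349.7 and 719.1 in CON and 449.6, 759.6 and 1019 in PEA, a log2 fold change of 1.00 ± 0.27 (edgeR adjusted p = 0.0282). Cmpk2 had 67.88, 139.1 and 312.3 in CON and 216.7, 320.5 and 430.7 in PEA, a log2 fold change of 1.04 ± 0.28 (edgeR adjusted p = 0.0258). For both genes the groups overlapped through CON 2, and the PEA 1 and PEA 3 libraries were the lowest of PEA. Rsad2 and Cmpk2 were called under all 8 alternative fits on the full set of libraries. Without CON 3 and CON 6 the log2 fold change was 0.70 for each, with edgeR adjusted p-values of 0.0826 and 0.0609.

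**Figure D4:**
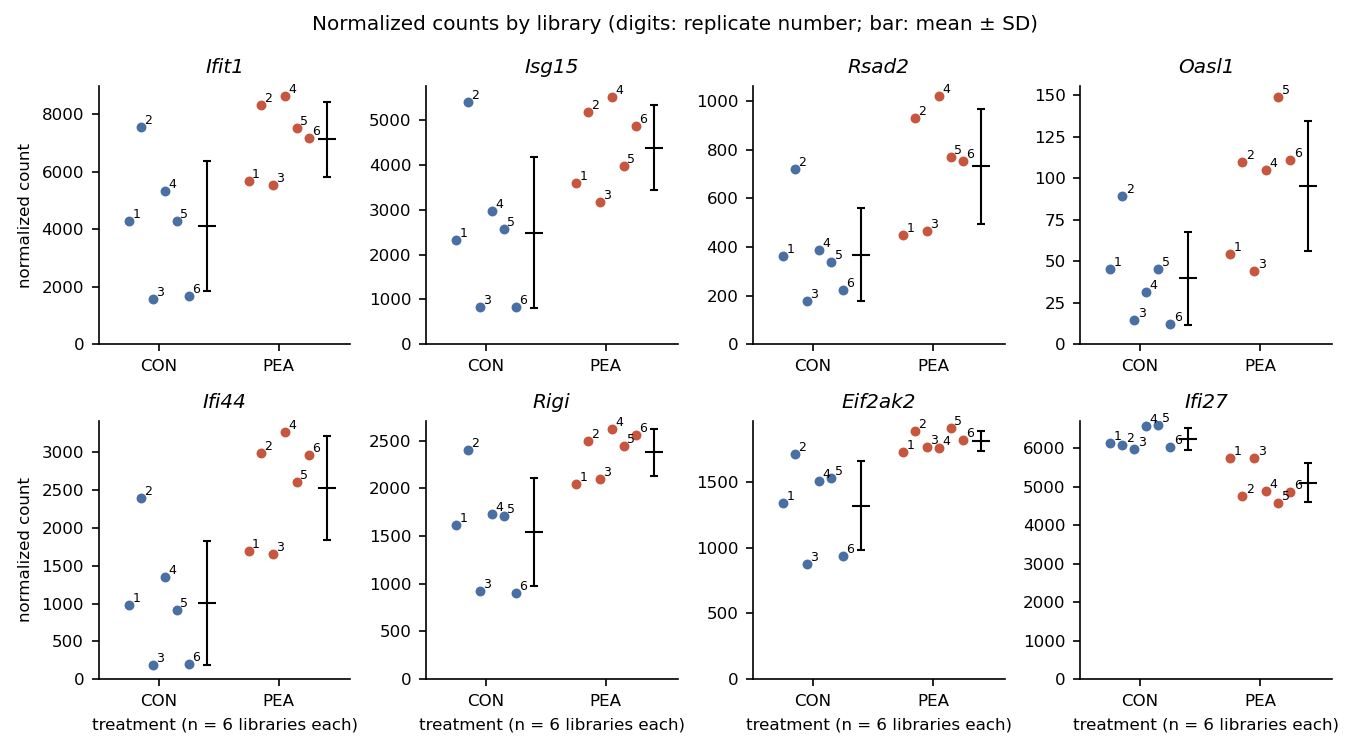
Normalized counts of 8 genes in each library (points, digits giving the replicate number) for CON in blue and PEA in red, with the mean and SD beside them. In all panels but Ifi27, CON 3 and CON 6 are the lowest points and CON 2 is the highest CON point, and the groups do not overlap for Eif2ak2 and Ifi27.

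Oligoadenylate synthetases that are active as enzymes make 2-5A, the activator of RNase L, on sensing double-stranded RNA. Not every protein of the family is active, and which of these 6 make 2-5A was not examined here. All 6 genes were higher in PEA, 2 of them called, with a median log2 fold change of 0.94. Oas3 had the widest CON spread of the members. Its libraries were 33.94, 230.2 and 508.7 in CON and 319.3, 571.7 and 734.1 in PEA, a log2 fold change of 1.33 ± 0.43 (edgeR adjusted p = 0.0557). Oasl1 (chr5:115061294-115075974), which restrains translation of Irf7 mRNA, was a low gene and rose from 12.2, 38.4 and 89.08 to 44.19, 107.5 and 148.8, a log2 fold change of 1.27 ± 0.39 (edgeR adjusted p = 0.0456). Oas1b (chr5:120950700-120962228), the flavivirus resistance gene of mice, rose from 17.28, 51.48 and 98.74 to 71.14, 94.87 and 144.7, a log2 fold change of 1.01 ± 0.31 (edgeR adjusted p = 0.0458). Both calls lay close to the threshold. Oasl1 was not called by DESeq2 (adjusted p = 0.0551), and without CON 3 and CON 6 neither was called by edgeR, at log2 fold changes of 0.86 for Oasl1 and 0.63 for Oas1b (adjusted p = 0.128 and 0.115). The lowest PEA library of Oasl1 was reached by CON 1, CON 2 and CON 5, and that of Oas1b by CON 2 alone. Oasl2, the highest of the role per kilobase, had 562.5, 1981 and 3829 in CON and 2545, 3730 and 4133 in PEA, a log2 fold change of 0.86 ± 0.34 (edgeR adjusted p = 0.11). Oas1a and Oas2 averaged 903.7 and 494.6 in CON, and 1556 and 897.6 in PEA, with log2 fold changes of 0.79 and 0.87. In each of the 6 genes CON 3 and CON 6 were the lowest of the 12 libraries.

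Among 13 effectors, 12 were higher in PEA, 1 of them called, and 1 was called lower. Ifi44, an inducible cytoplasmic protein, had the largest fold change of all members. Its CON libraries were 192.3, 945.7 and 2395 and its PEA libraries 1659, 2781 and 3263, a log2 fold change of 1.34 ± 0.43 (edgeR adjusted p = 0.0558). Without CON 3 and CON 6 it was 0.85, with an edgeR adjusted p of 0.0401, so that its fold change fell while its p passed the threshold. Mx2, a dynamin-like GTPase, had 112.1, 320.7 and 648.2 in CON and 387.2, 638.3 and 795.3 in PEA, a log2 fold change of 0.94 ± 0.31 (edgeR adjusted p = 0.0565). Its paralog Mx1 averaged 95.74 ± 53.44 in CON and 131.9 ± 43.49 in PEA, a log2 fold change of 0.48 ± 0.30 (edgeR adjusted p = 0.315). Without CON 2 it was 0.82 (edgeR adjusted p = 0.0311). Bst2, or tetherin, which holds budding virions at the membrane, was the highest member per kilobase, at 3502 in CON and 5922 in PEA. Its libraries were 1971, 3914 and 8690 in CON and 5465, 7604 and 8376 in PEA, so that CON 2 exceeded every PEA library, a log2 fold change of 0.76 ± 0.27 (edgeR adjusted p = 0.078). Trim30a (chr7:104058232-104114407), a regulator of Toll-like receptor signaling, rose from 220.9, 577.2 and 904.3 to 713.2, 1025 and 1109, a log2 fold change of 0.80 ± 0.25 (edgeR adjusted p = 0.0494). CON 2 and CON 4 reached its PEA range. The call lay at the edge of the threshold, and Trim30a was not called by DESeq2 (adjusted p = 0.083), nor by edgeR without CON 3 and CON 6 (log2 fold change 0.45, adjusted p = 0.0641). The estimated counts of this gene, one of a cluster of related genes, departed from whole numbers by up to 0.49. The other 7 effectors had log2 fold changes from 0.33 to 0.77. They were Xaf1 (0.77), an antagonist of the caspase inhibitor XIAP, Rnf213 (0.51), a giant ubiquitin ligase, Tor3a (0.44), a torsin ATPase, Samd9l (0.41), an inhibitor of translation, Trim21 (0.39), a cytosolic antibody receptor, Nmi (0.35) and its partner Ifi35 (0.33).

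Ifi27 (chr12:103392254-103407799) ran against the rest. This mitochondrial protein gene had 5979, 6105 and 6610 normalized counts in CON and 4587, 4885 and 5757 in PEA. No PEA library reached the lowest CON value, and the log2 fold change was -0.29 ± 0.06 (edgeR adjusted p = 0.00705). Its CON spread was the smallest of the members, with a highest-to-lowest ratio of 1.11, and CON 3 and CON 6 did not stand apart as they did elsewhere, at 5979 and 6028 beside 6081 in CON 2. Within PEA the order was also turned. PEA 1 and PEA 3, the lowest PEA libraries of most members, were the highest for Ifi27 at 5754 and 5757. It was called lower in all 8 alternative fits and in all 12 fits that left out 1 library. Exons of Ifi27 overlap those of the paralog Ifi27l2a in the annotation, and reads of both genes cannot be fully told apart.

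The sensors detect RNA or DNA in the cytoplasm. All 8 were higher in PEA and 3 were called. Rigi (chr4:40203772-40239852), the receptor of RNA with a 5′ triphosphate, rose from 897.8, 1664 and 2399 to 2041, 2470 and 2619, a log2 fold change of 0.62 ± 0.18 (edgeR adjusted p = 0.0363). Eif2ak2 (chr17:79159972-79190012), or PKR, which halts translation on binding double-stranded RNA, rose from 876.2, 1423 and 1712 to 1730, 1792 and 1913, a log2 fold change of 0.47 ± 0.13 (edgeR adjusted p = 0.0285). Adar (chr3:89622329-89660753), which edits adenosine in double-stranded RNA and so hides the cell's own RNA from the sensors, rose from 803.5, 1392 and 1918 to 1661, 2034 and 2088, a log2 fold change of 0.56 ± 0.16 (edgeR adjusted p = 0.0337). These were the members called also without CON 3 and CON 6, at edgeR adjusted p-values of 0.0397, 0.0199 and 0.0428, with Ifi44. Their log2 fold changes were then 0.35, 0.26 and 0.32. For Rigi and Adar, CON 2 alone of the CON libraries reached the PEA range. Estimated counts of Adar departed from whole numbers by up to 0.49, so that some of its reads were shared with other genes. Eif2ak2 had the tightest PEA libraries, with a highest-to-lowest ratio of 1.11, and the groups did not overlap. Zbp1, a sensor of left-handed nucleic acid that can trigger necroptosis, had 190.3, 670.8 and 1882 in CON and 899, 1778 and 1967 in PEA, a log2 fold change of 1.01 ± 0.41 (edgeR adjusted p = 0.115). Dhx58, or LGP2, had 118.3, 477 and 916.5 in CON and 661.8, 868.4 and 942.5 in PEA, a log2 fold change of 0.86 ± 0.31 (edgeR adjusted p = 0.0844). In both, CON 2 fell inside the PEA range, and for Zbp1 CON 4 did too. Ddx60, Ifih1, which encodes the long-RNA sensor MDA5, and Cgas, the DNA sensor, had log2 fold changes of 0.73, 0.67 and 0.30. Cgas averaged 125.4 ± 22.78 in CON and 152.8 ± 14.48 in PEA, and was not called under any of the 8 alternative fits or the 12 that left out 1 library.

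Of the 3 transcription factors, Irf1 (chr11:53660812-53669200) was called. It rose from 799.9, 1169 and 1320 to 1206, 1521 and 1640, a log2 fold change of 0.41 ± 0.11 (edgeR adjusted p = 0.0258), and its highest CON library was CON 5, not CON 2. Irf1 and Eif2ak2 each kept the call in 8 of the 12 fits that left out 1 library, the most of the upregulated members. Irf7, which amplifies interferon production, had 897.8, 2452 and 6109 in CON and 3601, 5656 and 6758 in PEA, a log2 fold change of 0.98 ± 0.35 (edgeR adjusted p = 0.0777). Irf9, the DNA-binding partner of STAT2, had 689.3, 1276 and 1877 in CON and 1496, 1722 and 1965 in PEA, a log2 fold change of 0.48 ± 0.18 (edgeR adjusted p = 0.0948). The groups overlapped for all 3, through CON 2 alone for Irf7, CON 2 and CON 4 for Irf9, and CON 2, CON 4 and CON 5 for Irf1, whose estimated counts departed from whole numbers by up to 0.48. Irf1 was not called without CON 3 and CON 6 (log2 fold change 0.25, edgeR adjusted p = 0.0641).

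The ADP-ribosylation genes encode enzymes that transfer ADP-ribose, and Dtx3l, a ubiquitin ligase that works in a complex with PARP9. All 4 were higher by a similar amount, from 0.52 to 0.65 on the log2 scale, and 0 were called by edgeR or DESeq2, while limma-voom called 3 and all 4 had an unadjusted p below 0.05 in edgeR. Parp14 had 227.3, 720.1 and 1182 in CON and 793.1, 1097 and 1238 in PEA, a log2 fold change of 0.65 ± 0.27 (edgeR adjusted p = 0.131). Dtx3l had 354.8, 832.4 and 1300 in CON and 898.1, 1202 and 1417 in PEA, a log2 fold change of 0.59 ± 0.22 (edgeR adjusted p = 0.0918). Parp12, the highest of the role per kilobase, had 800.1, 1299 and 1936 in CON and 1483, 1925 and 2195 in PEA, a log2 fold change of 0.52 ± 0.17 (edgeR adjusted p = 0.0622). In Dtx3l, CON 2 alone of the CON libraries reached the PEA range, and in Parp12 and Parp14 CON 4 did so too. Parp9 averaged 933.3 ± 395.8 and 1390 ± 185.1, and its exons overlap those of Dtx3l, so reads of the pair are uncertain.

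The genes that act before the members were examined from a list of 40 ligands, receptors, kinases, factors and adaptors, of which 30 were in the tables and 26 were tested. Ligand transcripts were few. Ifnb1 averaged 1.17 normalized counts in CON and 1.24 in PEA, with 6 of 12 libraries at 0 and at most 6 estimated counts in a library. Ifng averaged 5.06 and 1.58, with at most 8 estimated counts in a library, too few to be tested. Its lowest CON library was 3.06 and its highest PEA library 3.03. The other 8 ligands were not analysed here. The 5 receptor genes tested were expressed and were not called: Ifnar1 averaged 1438 ± 65.65 in CON and 1351 ± 40 in PEA, and Ifnar2 1078 ± 96.7 and 1169 ± 88.68. The receptor kinases Jak1 and Tyk2 each had a log2 fold change of -0.02. Dhx9, an RNA helicase, had the highest mean of the list and a log2 fold change of 0.02.

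Of the 26 tested, 4 were called higher, beside 6.31% of all genes. Stat2, the partner of IRF9, ran from 525.5 to 1850 over the CON libraries and from 1486 to 2353 over the PEA libraries, a log2 fold change of 0.83 ± 0.23 (edgeR adjusted p = 0.0276). Trex1, a nuclease that clears cytosolic DNA, rose by 0.67 ± 0.16 (edgeR adjusted p = 0.0156), Samhd1, which depletes nucleotides, by 0.33 ± 0.09 (edgeR adjusted p = 0.0217), and Sting1, the adaptor of cGAS, by 0.25 ± 0.07 (edgeR adjusted p = 0.0337). The median over the list was 0.11, beside 0.01 over all genes. In the fit without CON 3 and CON 6 only Stat2 was called, beside 3.53% of all genes, and its log2 fold change was 0.53. Those of Trex1, Samhd1 and Sting1 were then 0.51, 0.24 and 0.21 (edgeR adjusted p = 0.0564, 0.0861 and 0.132). Leaving out CON 2 gave 7 calls, leaving out PEA 6 gave 2, and leaving out CON 6, PEA 2, PEA 4 or PEA 5 gave 1, beside the shares of all genes given above for these fits.

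**Figure D5:**
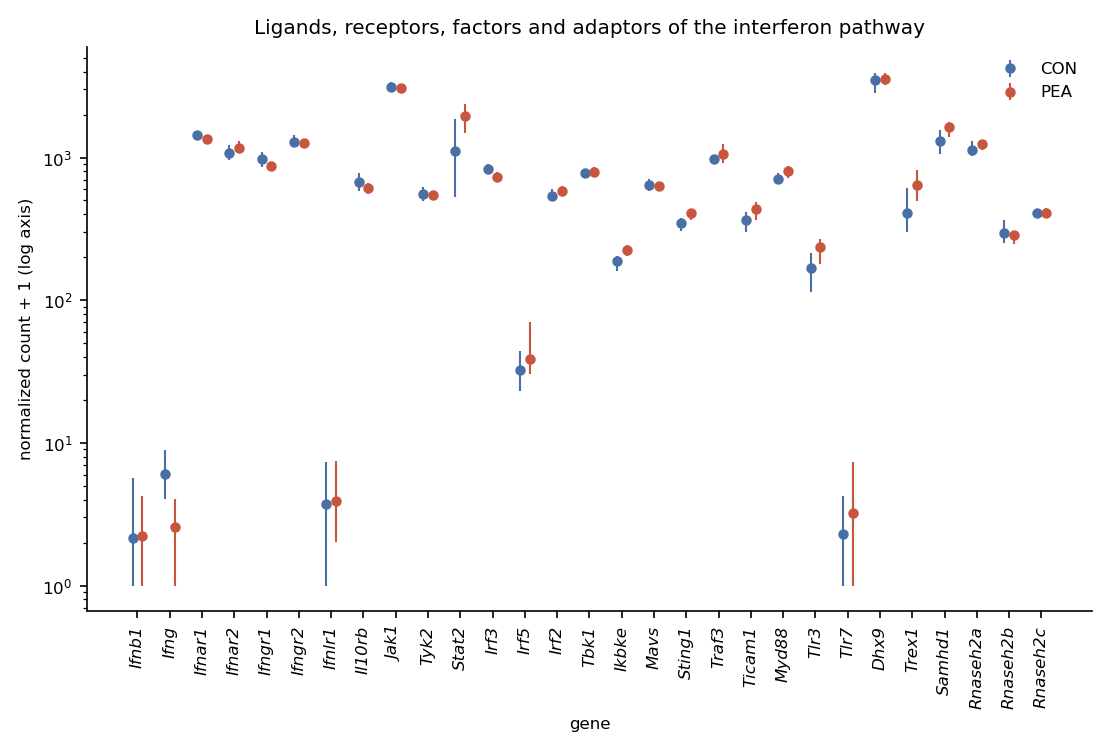
Mean normalized count + 1 of 29 interferon pathway genes (log axis), with bars from the lowest to the highest library, for CON in blue and PEA in red. The ligands Ifnb1 and Ifng lie near the floor, the receptors and Jak1 lie at similar levels in both groups, and Stat2 shows the wide CON range seen in the members.

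A second list held 39 further interferon-stimulated genes that are not members, of which 35 were tested. Of these, 34 were above 0 and 10 were called higher, beside 51.3% and 6.31% of all genes, with a median log2 fold change of 0.45 beside 0.01. The called genes were Trim34a (1.55), Slfn9 (0.97), Lgals3bp (0.88), Uba7 (0.70), which activates ISG15, Helz2 (0.65), Ifi203 (0.55), Parp11 (0.49), Ifi204 (0.42), Shisa5 (0.42) and Pml (0.36), the scaffold of nuclear bodies. Trim34a was a low gene, at 19.17 ± 12.06 in CON and 56.53 ± 28.97 in PEA. Slfn9 ran from 114.2 to 296.4 in CON and from 335.7 to 428.8 in PEA, without overlap. Parp11 ran from 183.1 to 253.3 and from 276.7 to 319.1, also without overlap. The groups of Pml and Helz2 did not overlap either, beside 2.53% of all genes. The genes with the highest means were Ifitm3, which blocks viral entry at endosomes, at 14724 ± 4928 and 19924 ± 1717 (log2 fold change 0.44, edgeR adjusted p = 0.08), and Lgals3bp, at 6115 ± 2959 and 11213 ± 1925. Lap3 was the one tested gene of the list below 0, at -0.04. Without CON 3 and CON 6, 5 were called (Lgals3bp, Pml, Slfn9, Helz2 and Parp11), beside 3.53% of all genes, and the median was 0.24. Leaving out CON 2 gave 29 calls, beside 9.32% of all genes, leaving out CON 1, CON 5 or CON 6 gave 6, leaving out PEA 4, PEA 5 or PEA 6 gave 5, and leaving out PEA 2 gave 4, beside the shares of all genes given above for these fits.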

How the data were processed

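RNA was poly(A)-selected and sequenced in 12 libraries. Per the labels and methods, the authors trimmed reads, aligned them with STAR 4.4.1d to mm39 in Partek, and made estimated counts per gene by expectation-maximization. The deposited table of estimated counts was tested here. The deposited table of signal values holds the same counts divided by 1 size factor per library (normalized counts), which are the levels given. Strand use in counting is not given in the sources used here. Totals ran from 12354845 to 50397444 estimated counts, and 30.8% of positive values departed from whole numbers by over 0.01. Replicate 2 of PEA has a top-up run that shares its row.

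Counts were rounded and fitted with edgeR 4.0.16 (quasi-likelihood, TMM, filterByExpr, no block) in R 4.3.3, with Benjamini-Hochberg adjustment over 13142 genes. The SE is the fold change divided by the root of F. Alternatives used DESeq2 1.42.0, limma 3.58.1 (voom, and log2(normalized + 1)), other scalings, filters and sample sets. The edgeR step was tested on simulated data that had the same dispersion for all genes and both groups. The members varied more in CON than in PEA, so that test does not cover calls on genes of unequal spread. The members and lists were chosen with earlier results of these data known, and no set test was made. Lowest, median and highest libraries are given for called members, the 2 largest changes and the highest level per kilobase of each role. Exon lengths and overlaps come from GENCODE vM39 on GRCm39, and promoter sequences from RefSeq. Exons of 22 members overlap another annotated gene, and those values are uncertain. A gene counted in the pathway list is not reported here.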

Additional observations from a re-analysis of the deposited data

How the results depend on the processing

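The count of members called higher, 11, was 8 with DESeq2 (without Herc6, Oasl1 and Trim30a), 11 with median-of-ratios scaling, with no filter on low counts, with at least 10 counts in every library and with unrounded counts, 34 with limma-voom, 26 with limma on the deposited normalized counts, and 4 without CON 3 and CON 6. With the replicate block it was 41. The shares of all genes called higher were 7.48% with DESeq2, 7.39% with limma-voom, 6.7% with limma on the deposited counts and 7.18% with the replicate block. Over all genes tested, deviations from the group mean had correlations from -0.083 to 0.065 between same-numbered libraries. No CON library correlated best with the PEA library of its own number. These values cover all genes and not the members alone, and whether equal numbers mark a shared experiment was not tested. At an adjusted p below 0.01 the count was 0 in edgeR, beside 2.15% of all genes, with 41 members at an unadjusted p below 0.05. It was 1 in DESeq2, 1 in limma-voom, 11 with the replicate block, 27 without CON 2, and 0 in each other fit. Shares of all genes at 0.01 were not computed for those fits. At the threshold of 0.05, leaving out 1 library gave 0 to 42 members. Ifi27 was called lower at 0.05 in each of these fits, and at 0.01 in edgeR on all libraries without the block. The members' median log2 fold change was 0.36 without CON 3 and CON 6, 0.58 to 1.00 when 1 library was left out, and 0.74 to 0.91 otherwise. The pathway list, 4 calls, had 7 with the replicate block, 1 without CON 3 and CON 6, and 1 to 7 with 1 library left out. The further list, 10 calls, had 20 with limma-voom, 26 with the replicate block, 5 without CON 3 and CON 6, and 4 to 29 with 1 library left out. Of 924 values of single members under alternatives, 0 changed direction, 90 lost a call and 102 gained one. All 44 members also passed a mean of 1 or more in place of 10. The causes were not tested. Ifnb1 and Ifng had at most 6 and 8 estimated counts in a library, too few to test.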
